A study of Mus musculus with 7 samples.

Results

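The Ikaros family of zinc finger transcription factors has 5 genes in the mouse, Ikzf1 to Ikzf5, and all 5 were found by symbol among the 15815 genes of the deposited table. All 5 lay above a mean normalized count of 10, the level required of a tested gene, as did 11787 genes in all. They were measured by RNA-seq in 7 libraries of regulatory T (Treg) cells, CD4 T cells that restrain immune responses. The hosts were Rag-/- mice, which make no T or B cells. They received naive T cells and Treg cells from WT mice, and a further Treg population marked by YFP from the Foxp3 locus, and 8 weeks later the YFP+ cells were recovered by sorting from their mesenteric lymph nodes (mLN). In 4 libraries (WT 1 to 4) the marked cells were WT, and in 3 (KO 1 to 3) they were Hpgd-deficient. The labels give all 7 libraries the strain C57BL/6JRcc and the same line, with a floxed Hpgd allele and Foxp3-YFP-Cre, which deletes Hpgd in Treg cells. They do not say what the WT cells carried at the Hpgd locus, the age of the hosts, or whether each library came from a separate host. The p-values therefore measure the spread between these samples, which may be partly technical.

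Ikaros family proteins bind DNA through zinc fingers near their amino terminus and pair with themselves and with each other through fingers at the carboxy terminus. They recruit chromatin complexes, among them NuRD, and can silence or activate genes during lymphocyte development. Ikaros (Ikzf1) is made throughout the blood system, Aiolos (Ikzf3) mainly in mature lymphocytes, Helios (Ikzf2) in many Treg cells, and Eos (Ikzf4) is known as a Foxp3 partner that recruits the corepressor CtBP1. Pegasus (Ikzf5) is the most divergent member.

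The coding sequences show how close the members are, which bears on whether reads can be assigned to one of them. The pattern of a C2H2 finger, in which 2 cysteines and 2 histidines hold a zinc ion, was searched for in 1 principal transcript per gene (GENCODE M21, GRCm38). It matched 6 times in Ikzf1, Ikzf2 and Ikzf4 and 5 times in Ikzf3 and Ikzf5. A finger that departs from this pattern was not counted, so a protein may hold more fingers than matches. The second match from the start lies in the DNA-binding group, and its coding bases are shown 5′ to 3′ for the 4 members in which it corresponds, with the codons of the zinc-binding cysteines and histidines in capitals.
Ikzf1: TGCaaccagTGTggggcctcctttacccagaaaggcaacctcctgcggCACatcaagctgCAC
Ikzf2: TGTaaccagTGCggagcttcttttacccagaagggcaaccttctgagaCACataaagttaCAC
Ikzf3: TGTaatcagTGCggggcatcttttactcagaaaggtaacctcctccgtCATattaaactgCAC
Ikzf4: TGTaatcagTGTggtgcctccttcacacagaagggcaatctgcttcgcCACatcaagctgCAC
Ikzf1 shared 51 of these 63 bases with Ikzf2, 51 with Ikzf3 and 53 with Ikzf4. Ikzf5 had no clear counterpart of this finger: its amino-terminal matches of the same length shared at most 29 of 63 bases with that of Ikzf1, and the closest pair in that region was its first match with the third of Ikzf1, at 38 of 63 bases (60.3%). The last match lies at the carboxy terminus, in the group through which members pair, and is shown in the same way.
Ikzf1: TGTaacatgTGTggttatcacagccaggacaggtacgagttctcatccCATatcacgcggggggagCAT
Ikzf2: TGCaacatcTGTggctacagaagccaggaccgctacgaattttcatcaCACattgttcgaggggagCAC
Ikzf3: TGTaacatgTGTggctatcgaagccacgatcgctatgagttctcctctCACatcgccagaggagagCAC
Ikzf4: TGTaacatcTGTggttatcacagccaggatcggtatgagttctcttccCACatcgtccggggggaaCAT
Ikzf5: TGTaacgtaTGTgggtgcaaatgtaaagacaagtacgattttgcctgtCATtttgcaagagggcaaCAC
Here Ikzf5 shared 42 of 69 bases with Ikzf1, and the other three shared between 50 and 59 with it. The other carboxy-terminal match of Ikzf5 shared 43 of 63 bases (68.3%) with its counterpart in Ikzf1.

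Over whole coding sequences, identity between members ran from 60.4% (Ikzf3 with Ikzf5) to 67.9% (Ikzf1 with Ikzf4) of aligned bases. No run of 31 bases was shared between transcripts of any 2 members except Ikzf2 and Ikzf4, which shared 3, all in a repeat of G and T after the coding part. Reads of different members can therefore be told apart along nearly all of their length. Ikzf5 overlaps another gene instead. Of its 5721 annotated exon bases, 4652 also lie in exons of Pstk, a kinase gene for selenocysteine transfer RNA on the opposite strand. The library method does not mark strand. Reads from these bases cannot be told apart between the 2 genes, so the level of Ikzf5 is uncertain. This limit also holds for its spread, ratios and correlations below.

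The members lie on 4 chromosomes (mm10). Ikzf1 is at chromosome 11, 11685003 to 11772926, plus strand (ENSMUSG00000018654.17), and Ikzf3 at chromosome 11, 98464902 to 98546031, minus strand (ENSMUSG00000018168.8). Ikzf2 is at chromosome 1, 69531214 to 69687245, minus strand (ENSMUSG00000025997.13). Ikzf4 is at chromosome 10, 128630843 to 128645991, minus strand (ENSMUSG00000002578.17), and Ikzf5 at chromosome 7, 131388652 to 131410521, minus strand (ENSMUSG00000040167.16). All 5 are protein-coding.

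Reads per library ranged from 4135733 (KO 3) to 10622507 (WT 4). On the first principal component, which held 35.1% of the variance, WT 2 and KO 3 lay farthest out, at -81.9 and 61.0, against -10.5 to 31.6 for the other libraries. Results are therefore also given without these 2 libraries where that matters. The deleted gene Hpgd, which encodes a prostaglandin-inactivating enzyme, was at 13.0 ± 4.08 (SD, n = 4) normalized counts in WT. KO libraries, at 2.90 ± 2.41 (SD, n = 3), all lay below the WT libraries. This rests on 9 to 19 reads per library in WT and 1 to 3 in KO. Hpgd did not pass over all genes (limma adjusted p = 0.9998, exact permutation p = 0.0286). A read from exons that Cre leaves in place also counts toward Hpgd. The T cell surface genes Itgae, Cd3g, Cd3d, Tnfrsf4 and Icos were abundant in both genotypes, with a lowest group mean of 5480.5 normalized counts (Icos in WT). By themselves these genes do not tell Treg cells from other T cells. Foxp3 was read in all 7 libraries. A sorted population does not show whether a level reflects fewer cells expressing a gene or less RNA per cell.

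Levels of different genes were compared per kb of annotated exon, as the mean normalized count per kb over the 7 libraries. Ikzf2 was the most abundant member, at 877 ± 267 (SD, n = 7), followed by Ikzf4 at 298 ± 19.7 and Ikzf1 at 277 ± 35.5. Ikzf3 at 39.8 ± 13.3 and Ikzf5 at 33.9 ± 9.64 were far lower. The family thus formed 3 tiers. Ikzf2 was 2.95 times as high as Ikzf4, with every library of Ikzf2 above every library of Ikzf4, and Ikzf1 was 6.95 times as high as Ikzf3, again without overlap. Within the tiers the order was not clear: Ikzf4 exceeded Ikzf1 in 6 of 7 libraries, and Ikzf3 exceeded Ikzf5 in 5 of 7, with overlapping ranges in both cases.

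The tiers held with 2 other definitions of length, but the values did not. Per kb of the longest protein-coding transcript, Ikzf3 was at 95.3 ± 31.8 and 2.18 times as high as Ikzf5, above it in each of the 7 libraries though the ranges overlapped. The annotated exons of Ikzf3 span 8754 bases and its only protein-coding transcript 3658. Per kb of the longest coding sequence, Ikzf1 at 996 ± 128 lay above Ikzf4 at 867 ± 57.5, so that these 2 changed places.

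Among 25 transcription factors, the family and a list of 20 other Treg factors, Ikzf2 ranked 2 by level per kb, below Ets1 (1345 ± 117) and above Tcf7 (675 ± 128). Ikzf4 and Ikzf1 ranked 5 and 7, and Ikzf3 and Ikzf5 ranked 22 and 23. Foxp3, the factor that defines Treg cells, ranked 24, at 24.9 ± 7.25 per kb. Ikzf2 was 35.3 times as high as Foxp3 per kb of annotated exon and 37.0 times per kb of the longest coding transcript. Of all 14981 genes with an annotated length, 97.4% lay below Ikzf2, 91.6% below Ikzf4 and 55.3% below Ikzf5.

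**Figure D1:**
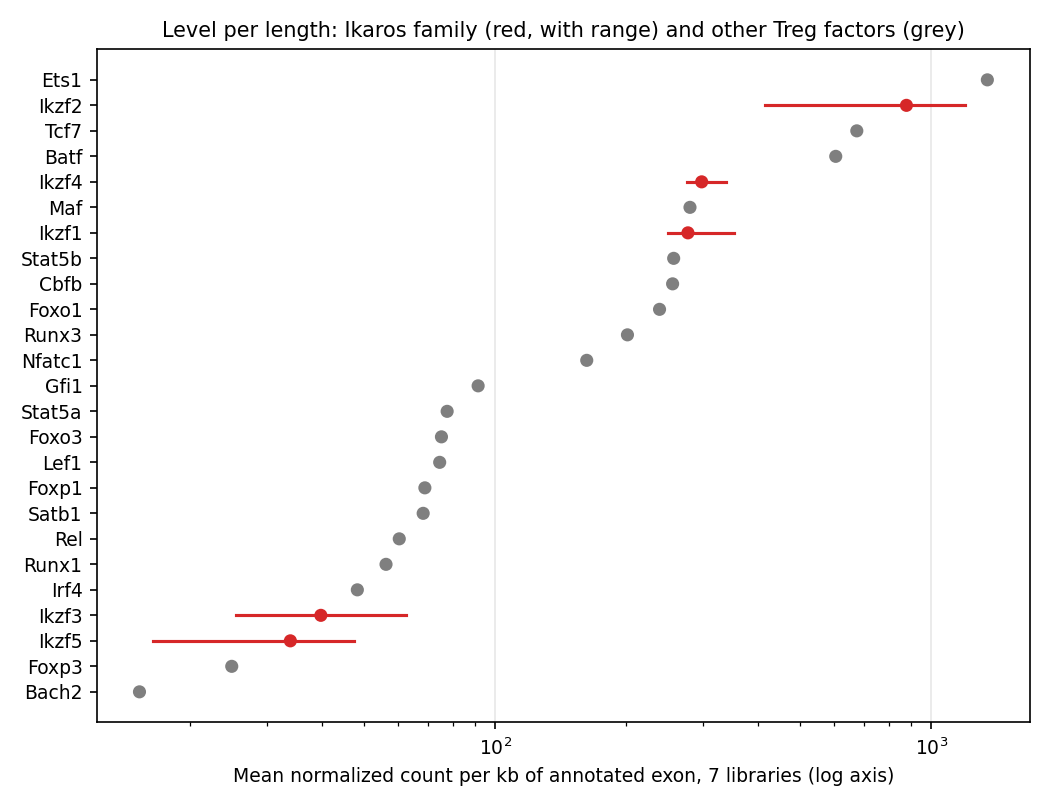
Mean normalized count per kb of annotated exon over the 7 libraries (log axis) for the 5 Ikaros family genes (red, with a line from the lowest to the highest library) and 20 other Treg transcription factors (grey). Ikzf2 lies second from the top at 877, Ikzf4 and Ikzf1 lie close together, and Ikzf3 and Ikzf5 lie near Foxp3.

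Between genotypes, none of the 5 members passed an adjusted p of 0.05 in the limma fit, and none reached an unadjusted p under 0.05. Over all genes tested, 0% passed and 1.79% reached an unadjusted p under 0.05, and voom on the recovered reads also passed 0 genes. The adjusted p was 0.9996 for each of the 5. In no member did the 4 WT and 3 KO values stand apart, which they did for 3.65% of all genes tested. The estimates of 3 members were above 0 and those of 2 below, with a median log2 fold change of 0.011, against 0.013 over all genes tested. A log2 fold change is KO minus WT in mean log2(normalized count + 1). With array weights, with the replicate block and without WT 2 and KO 3, settings in which 0.0339%, 0.0255% and 0.0338% of genes tested passed, no member passed either.

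Helios (Ikzf2) was at 9190, 4832, 13666 and 11060 normalized counts in WT 1 to 4, while KO 1 to 3 gave 9388, 9318 and 13872. WT 2 was the lowest library and KO 3 the highest, and the other KO libraries fell inside the WT range. The log2 fold change was 0.24 (SE 0.32; 95% interval -0.46 to 0.93), or between 0.729-fold and 1.91-fold. WT 2 decided its sign: without it the estimate was -0.065, and without both WT 2 and KO 3 it was -0.25.

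Eos (Ikzf4) was at 1808, 1735, 1771 and 1787 in WT 1 to 4, while KO 1 to 3 gave 2024, 1713 and 1649. The 4 WT libraries lay inside the KO range. Its log2 fold change of 0.011 (SE 0.17) had a 95% interval of -0.37 to 0.39, or between 0.776-fold and 1.31-fold. The estimate fell below 0 without WT 2 and was -0.078 without KO 1. The 4 WT values differed by no more than counting error allows, with a chi-square of reads per degree of freedom of 0.573, where counting error alone gives about 1.

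Ikaros (Ikzf1) was at 1494, 1559, 1583 and 1618 in WT 1 to 4, while KO 1 to 3 gave 1441, 1457 and 2039. KO 3 was the highest library and the other KO libraries the lowest. The log2 fold change was 0.055 (SE 0.19; 95% interval -0.35 to 0.46) and became -0.11 without KO 3. The WT values of this gene were also close to counting error (1.88 per degree of freedom), while those of KO were not (50.4).

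Aiolos (Ikzf3) was at 546, 283, 430 and 223 in WT. KO 1 to 3, at 251, 410 and 298, all lay inside the WT range. The log2 fold change was -0.16 (SE 0.32; 95% interval -0.84 to 0.53), and it turned to 0.059 without WT 1 and to 0.0032 without KO 1. B cells also make Aiolos. The 8 B cell genes found in the table summed to between 423 and 777 in WT and between 403 and 498 in KO, most of it from Cd79b (496 ± 183 and 376 ± 52.8). The defining B cell genes Ms4a1, Cd79a and Ebf1 each had group means under 10. Their part in the level of Ikzf3 was not tested.

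Pegasus (Ikzf5) was at 224, 94.2, 271 and 222 in WT 1 to 4, while KO 1 to 3 gave 190, 183 and 173. All KO libraries lay between the lowest and the second lowest WT library. The log2 fold change was -0.055 (SE 0.35; 95% interval -0.81 to 0.70) and -0.39 without WT 2. It turned to 0.027, 0.12 and 0.022 without WT 1, WT 3 and WT 4. The KO values agreed within counting error (0.301 per degree of freedom), while the WT values did not (30.2). Its overlapping neighbour Pstk averaged 187 ± 28.2 in WT against 225 ± 40.2 in KO, a log2 fold change of 0.26 (SE 0.26), and WT 2 was also its lowest library, at 155.

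**Figure D2:**
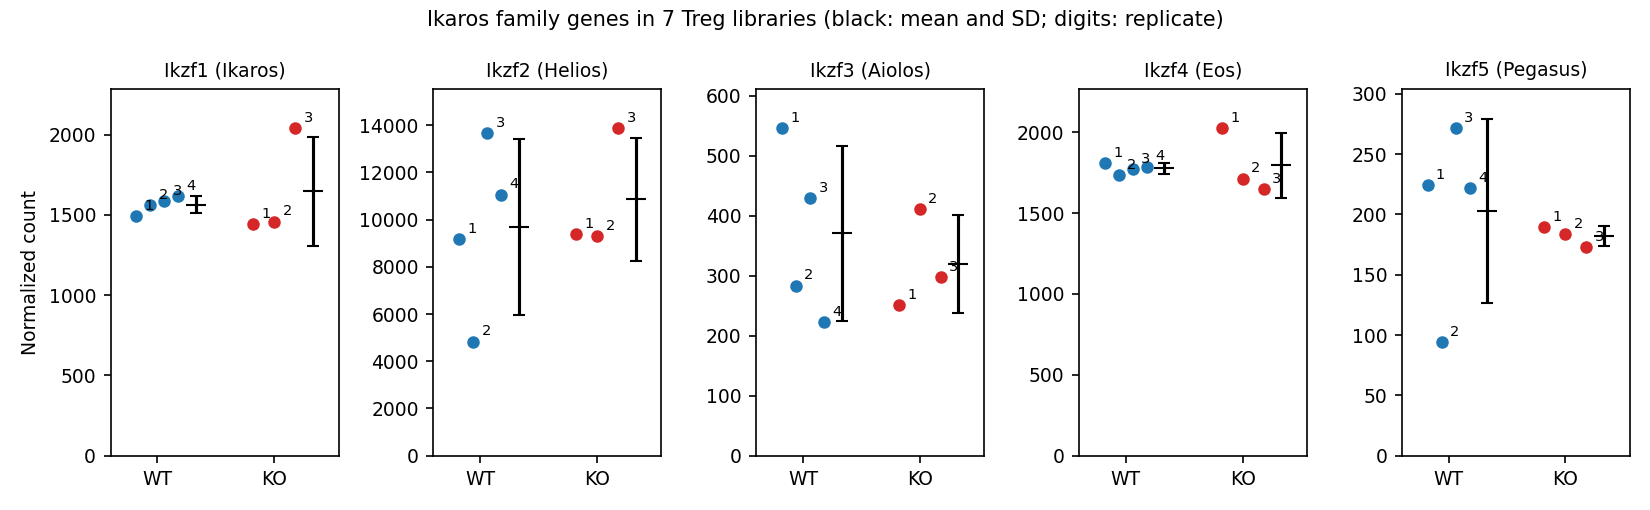
Normalized counts (linear axes from 0, a separate scale per gene) of the 5 family genes in the 4 WT (blue) and 3 KO (red) libraries, numbered by replicate, with the mean and SD in black. The WT points of Ikzf4 lie between 1735 and 1808, while those of Ikzf2 run from 4832 to 13666.

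**Figure D3:**
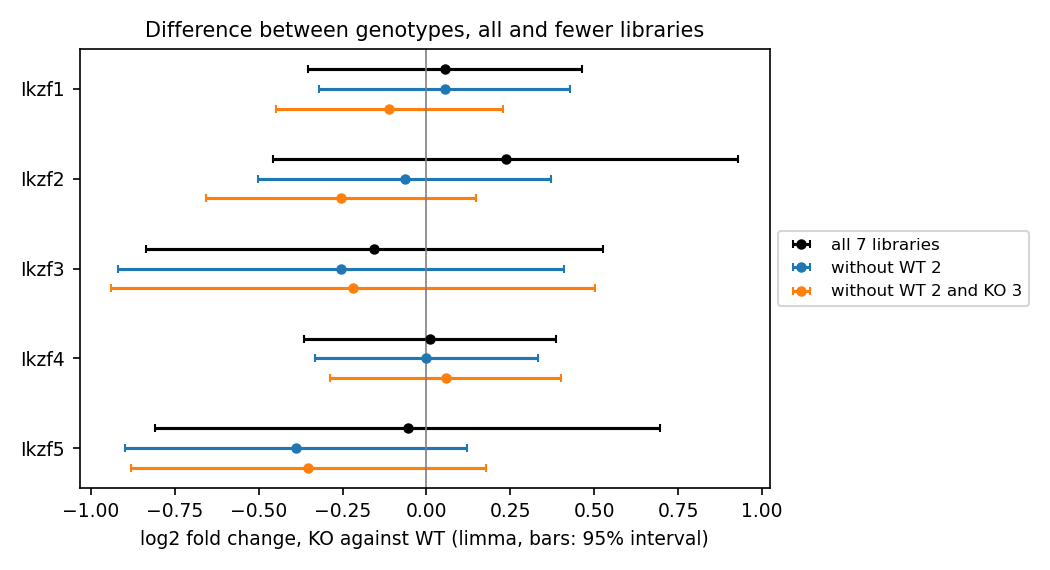
Limma log2 fold change, KO against WT, with its 95% interval for each family gene in all 7 libraries (black), without WT 2 (blue) and without WT 2 and KO 3 (orange). Every interval includes 0, and the estimate of Ikzf2 changes from 0.24 to -0.25 when both libraries are left out.

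The members differed in how much they varied. The SD of log2 values over the 7 libraries was 0.51 for Ikzf2, 0.48 for Ikzf5, 0.47 for Ikzf3, 0.17 for Ikzf1 and 0.09 for Ikzf4. Genes within 2-fold of each member's mean level gave the background. Only 0.930% of 1506 such genes had a lower SD than Ikzf4, and 14.4% of 1696 had a lower SD than Ikzf1. Ikzf2 lay at the other end, with a higher SD than 92.8% of 152 genes, and Ikzf3 and Ikzf5 exceeded 81.9% and 71.7% of theirs. The more variable Ikzf2 was also the more deeply read, with 5337 to 15736 reads per library and a mean counting error of 1.02%, against 897 to 2667 reads and 2.39% for Ikzf4. Single libraries carried much of this spread. Without WT 2 the SD fell to 0.28 for Ikzf2 and 0.24 for Ikzf5, which then exceeded 81.6% and 22.3% of their like genes, while Ikzf1 and Ikzf4 exceeded 41.0% and 4.58%. Without KO 3 the SD of Ikzf1 was 0.068, above 0.649% of its like genes, and without KO 1 that of Ikzf4 was 0.048. The spread of Ikzf4 was 1.76% of the mean in WT and 11.2% in KO, and that of Ikzf5 was 37.5% in WT and 4.68% in KO. Whether the genotypes differ in spread was not tested.

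Ratios between members within a library do not depend on its scaling. In shares of the family's summed level per kb, Ikzf2 took 54.7% ± 10.1 (SD, n = 4) of the WT sum and 58.4% ± 4.25 (SD, n = 3) of the KO sum. Ikzf4 took 20.9% ± 5.25 and 19.3% ± 4.35, and Ikzf1 took 19.1% ± 4.98 and 17.9% ± 0.799. The share of Ikzf2 ran from 40.6% to 63.9% over the 7 libraries. Of the 10 ratios between pairs, none passed between genotypes after adjustment over the 10 (exact two-sided permutation over 35 splits, for which the smallest possible p is 0.0286). None reached an unadjusted p under 0.05 either. The smallest p, 0.200 in the exact permutation test (adjusted p = 0.943), was that of Ikzf2 to Ikzf5, with a log2 ratio of 5.57 ± 0.15 in WT and 5.87 ± 0.39 in KO. KO 3 carried this difference of 0.29, which was 0.066 without it (exact permutation p = 0.800, adjusted p = 1.00). Over the 7 libraries the ratio of Ikzf1 to Ikzf4 had the lowest SD (0.24), followed by Ikzf2 to Ikzf5 (0.29), and Ikzf2 to Ikzf3 the highest (0.65). Without KO 3 the first 2 changed places, at 0.13 and 0.12.

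Across libraries, 5 of the 10 pairs of members correlated positively and 5 negatively, and none passed after adjustment over the 10. The split depended on the scaling, since 8 were positive and 2 negative on RPM values of the recovered reads. The largest correlation was that of Ikzf2 with Ikzf5 (Pearson r = 0.83, exact permutation p = 0.0448, adjusted p = 0.448). Its rank correlation was far weaker (Spearman rho = 0.25, exact permutation p = 0.595, adjusted p = 0.933). Leaving out WT 2 and KO 3, which lay farthest from the Ikzf2 median, gave an r of 0.85. On RPM values r was 0.85 with all libraries but -0.60 without the pair farthest out there, WT 2 and WT 3, and on values centred on each genotype it was 0.87 and 0.010, so the relation rested on a few libraries. The most negative was that of Ikzf1 with Ikzf4 (r = -0.63, exact permutation p = 0.174, adjusted p = 0.850; rho = -0.50, exact permutation p = 0.267, adjusted p = 0.889). It rested on KO 1 and KO 3, since r without them was 0.37.

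The genes most like each member over the 7 libraries were sought among the 7801 genes averaging 100 or more normalized counts, by Pearson r of log2 values, as a description. For Ikzf2 they were Fcho2 (r = 0.998), Ylpm1 (0.994) and Odf2 (0.993). For Ikzf5 they were Tnrc6b (0.989), Irf2 (0.988) and Nnt (0.985). For Ikzf1 they were Mcmbp (0.991), Rab5a (0.978) and Morf4l1 (0.969). For Ikzf4 they were Swap70 (0.939), S100a8 (0.918) and Zfyve27 (0.916), and for Ikzf3 Parp6 (0.952), Tfdp2 (0.946) and Accs (0.914). Genes with an r over 0.9 numbered 483 for Ikzf2, 243 for Ikzf5, 66 for Ikzf1, 4 for Ikzf4 and 3 for Ikzf3. The genes named for Ikzf2, Ikzf5 and Ikzf1 are therefore the top of long lists and not particular to them. Ikzf2 itself correlated at 0.968 with the first principal component. The points share libraries and their depth, and WT 2 and KO 3 hold the extremes for Ikzf2.

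Partner and regulator genes of the family were described from lists. All 14 subunit genes of NuRD, the nucleosome remodelling and deacetylase complex, were tested, and none passed. Estimates were higher in KO for 5 and lower for 9, with a median log2 fold change of -0.061, against 0.013 for all genes tested. The most abundant were the histone-binding subunit gene Rbbp7 at 1871 ± 369 in WT and 2098 ± 304 in KO, the remodelling ATPase gene Chd3 at 1518 ± 203 and 1456 ± 151, Mta2 at 1388 ± 210 and 1239 ± 57.1, the deacetylase gene Hdac1 at 1361 ± 283 and 1311 ± 345, and Rbbp4 at 1321 ± 273 and 1236 ± 153. Each of these differences was smaller than the larger of the group SDs.

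Of 9 other corepressor genes 3 had higher and 6 lower estimates, none passed, and the median was -0.22. It was -0.053 without WT 2 and KO 3 and -0.092 without KO 3 alone. Ctbp1, the corepressor gene tied to Eos, averaged 888 ± 255 in WT against 739 ± 8.91 in KO, with an SE of 0.23 on its log2 fold change of -0.22. Ncor1, a scaffold of nuclear receptor corepressor complexes, was at 2643 ± 780 and 2894 ± 395, and the Sin3 scaffold genes Sin3a and Sin3b were at 747 ± 122 against 710 ± 122 and at 872 ± 297 against 658 ± 138. Rcor1 was at 621 ± 104 and 807 ± 317. The 9 genes of the SWI/SNF remodelling complex split into 4 higher and 5 lower estimates (median -0.013, none passing). Its most abundant gene, Arid1a, was at 1936 ± 310 and 2065 ± 152, and the ATPase gene Smarca4 at 1307 ± 177 and 1288 ± 58.8.

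In human cells some Ikaros family proteins are degraded when certain drugs bind cereblon, the substrate receptor of a CUL4 ubiquitin ligase. The cereblon gene Crbn was at 1244 ± 232 in WT and 1243 ± 122 in KO. Over the 5 ligase genes 2 estimates were higher and 3 lower (median -0.051, none passing), with Rbx1 at 1677 ± 371 and 1607 ± 321 and Ddb1 at 962 ± 168 and 912 ± 20.2. Casein kinase 2 phosphorylates Ikaros and protein phosphatase 1 reverses it. Of the 6 genes of these enzymes 4 estimates were higher and 2 lower (median 0.080, none passing). The kinase gene Csnk2a1 was at 1733 ± 253 and 1905 ± 245, and the phosphatase gene Ppp1ca at 5813 ± 1964 and 5378 ± 751.

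Genes linked to the family in T cells were looked up last. Of 21 listed, 18 were matched and 16 tested, with 9 higher and 7 lower estimates, a median of 0.033 and none passing. The IL-7 receptor gene Il7r was at 4623 ± 1557 in WT and 5322 ± 1382 in KO, Cd4 at 4309 ± 983 and 4173 ± 1024, the survival gene Bcl2 at 2461 ± 550.1 and 2687 ± 360.2, Gata3 at 2393 ± 472 and 2454 ± 417, and the cell cycle inhibitor gene Cdkn1b at 1731 ± 532 and 1842 ± 966. Il2, a gene that Helios and Aiolos are known to silence, was at 7.18 ± 7.74 and 2.79 ± 0.770, below the level required of a tested gene, and is named here after its values were seen. Il10, also named after its values were seen, had the largest estimate (2.48, SE 1.20) and did not pass. Its normalized counts were 28.7 ± 31.3 in WT and 93.7 ± 79.3 in KO, with 1 library at 0. Of the 20 other Treg transcription factor genes 12 had higher and 8 lower estimates (median 0.040, none passing). Of 12 T cell surface genes listed for Treg cells 6 were higher and 6 lower (median -0.00071, none passing, and 0.20 without WT 2 and KO 3).

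**Figure D4:**
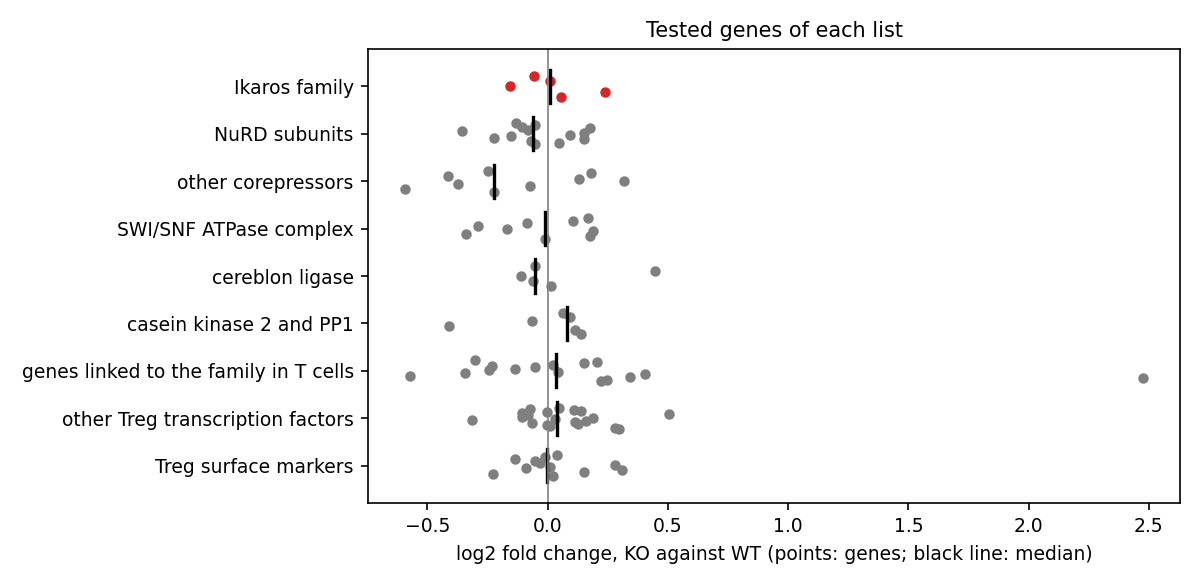
Limma log2 fold changes, KO against WT, of the tested genes in the family (red) and in each list of partner, regulator and T cell genes (points; lists of other cell types are not drawn) with the list's median (black line). No gene shown passed, the medians of the lists drawn lie between -0.22 and 0.08, and the single point at 2.48 is Il10.

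Among 6 lists of markers of other cells no gene passed with all 7 libraries unweighted and unblocked, and none was at 0 in every library. Besides the B cell genes above, the 4 plasma cell genes found in the table were led by Xbp1 (1553 ± 424 and 1693 ± 470), which T cells also make, with Jchain at 11.2 ± 7.86 and 44.4 ± 64.8. Lyz2 of myeloid cells was at 786 ± 495 and 806 ± 415, and Csf1r at 162 ± 74.2 and 114 ± 75.3. The 9 genes of CD8 T and NK cells summed to between 284 and 359 in WT and between 165 and 279 in KO, led by Cd8b1 and Prf1. The 8 stromal and endothelial genes found summed to between 259 and 476 and between 332 and 448, led by Pecam1 and Col1a1. Estimates above and below 0 numbered 2 and 1 among tested B cell genes, 2 and 0 for plasma cells, 2 and 6 for CD8 and NK cells, 6 and 4 for myeloid cells and 2 and 1 for stromal cells. Haemoglobin genes separated the genotypes in all 4 tested, as 3.65% of all genes tested did. They were led by Hba-a2 (867 ± 552 and 108 ± 53.2) and Hbb-b1 (408 ± 308 and 27.7 ± 12.6). The 5 erythroid genes found summed to between 642 and 2809 in WT and between 77.4 and 239 in KO. The separation was not particular to erythroid genes. The CD8 T and NK cell sums above did not overlap either. Of the 8 tested genes in that list 1 separated the genotypes, Gzmk (log2 fold change -2.60, SE 1.06), with 1 library at 0. In the main limma fit Hba-a1, Hba-a2 and Hbb-b1 did not pass (adjusted p = 0.189, 0.201 and 0.189). These 3 passed in limma with the replicate block (adjusted p = 0.00251, 3.48e-06 and 3.47e-05), although the replicate numbers did not pair the libraries. They also passed with array weights and without WT 2 and KO 3. The part of these other cells in the family's values was not tested.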

How the data were processed

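RNA-seq was made by the authors from 10 ng of total RNA per sample with SmartSeq2, a full-length cDNA method that carries neither strand nor molecular identifiers, and sequenced on a NextSeq 500, per the labels' protocols. Per the submitters' processing notes the tools were kallisto 0.44, DESeq2, Partek 6.6, CASAVA 1.8 and R 3.3.1 and the build mm10, each listed without its role. The deposited values are a normalized signal per gene. In every library the values minus 1 were whole multiples of 1 step (100% within 0.01 of a read), so the deposited value minus 1 is called the normalized count, and dividing it by the step gave reads. Such reads can be copies of 1 molecule, so counting errors cover counting only.

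Genes averaging 10 or more normalized counts entered a limma fit (version 3.58.1, R 4.3.3) to the log2 of normalized count plus 1, with a trended prior, no covariate, and Benjamini-Hochberg adjustment over 11787 genes. Hpgd, with a mean of 8.70, was taken from a fit without that filter. Simulated data with known changes served to test the code, and most small changes in them were not called. Ratios and correlations were tested by exact permutation. Lengths and coordinates are from GENCODE M21 (14981 of 15815 symbols matched), whose assembly, GRCm38, is that of mm10. Protein sequences were not used here. Named are the 5 members, Hpgd, the 3 genes most like each member, the 5 most abundant genes of each T cell or partner list or a choice of them, the 2 most abundant of each list of other cells, and Treg marker genes. Other named genes are marked, or stand beside a result that turns on them. Members and lists were chosen with earlier results of these data known.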

Additional observations from a re-analysis of the deposited data

Results flagged for a closer look

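In groups of 4 libraries, a highest or lowest value was picked out when its gap to the nearest other value was more than 0.829 of the group's range. This was checked in the WT group for 68 genes and ratios named by rule, and 5 were picked out, where chance picks about 1 in 20. Ratios between family members were among them, through WT 1. The log2 ratio of Ikzf1 to Ikzf4 was -0.28 in WT 1 and -0.16 to -0.14 in the other WT libraries, and that of Ikzf2 to Ikzf5 was 5.35 in WT 1 and 5.63 to 5.67 in the others. The corepressor gene Rcor1 was at 777 in WT 4 and at 555 to 581 in the others. Cd4 was at 5769 in WT 2 and at 3630 to 3936 in the others. Lyz2, a myeloid gene, was at 47.5 in WT 3 and at 962 to 1090 in the others.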

How the results depend on the processing

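No member passed under any of 18 alternatives to the limma fit, in which adjusted p lay between 0.921 and 0.9999, but no sign was stable under all of them. Leaving out 1 library at a time gave log2 fold changes of -0.11 to 0.14 for Ikzf1, -0.065 to 0.43 for Ikzf2, -0.37 to 0.059 for Ikzf3, -0.078 to 0.069 for Ikzf4 and -0.39 to 0.12 for Ikzf5. Without WT 2 and KO 3 together, the estimates of Ikzf1 and Ikzf2 turned to -0.11 and -0.25, and with array weights to -0.060 and -0.071. TMM and RPM scaling, other pseudocounts and filters, the prior without trend and voom turned no member's sign. Over all genes 4 passed with array weights, 3 under the replicate block and 4 without WT 2 and KO 3. Of the listed genes 3, all haemoglobin genes, passed in each of these settings. Without single libraries 0 passed. The cause was not tested. The replicate numbers did not pair the libraries: same-numbered WT and KO libraries correlated at 0.00814, -0.0357 and 0.0944 in their deviations, and not every library correlated best with its own number. With the replicate block Ikzf5 turned to 0.022 and no member passed. Levels per kb of longest coding sequence were 996 (Ikzf1), 6384 (Ikzf2), 229 (Ikzf3), 867 (Ikzf4) and 154 (Ikzf5), since these lengths are shorter. Per kb of longest protein-coding transcript they were 95.3 for Ikzf3, 346 for Ikzf4 and 43.8 for Ikzf5. Leaving out single libraries was an alternative chosen after seeing the data. Levels per kb of annotated exon then ran from 825 to 954 for Ikzf2, 291 to 301 for Ikzf4 and 264 to 281 for Ikzf1. Those of Ikzf3 ran from 36.1 to 42.2 and those of Ikzf5 from 31.7 to 36.8. The spreads were also recomputed after seeing the data. Ratios and correlations passed in none of their alternatives. With libraries left out, the ratios had only 20, 15 or 10 splits, too few for an exact permutation p under 0.05. Those settings therefore could not show a ratio passing. Planned count models in edgeR and DESeq2 were not run. With 94 to 316 reads per library, Ikzf5 was least precise (counting error 7.45%).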
